A study of Danio rerio with 20 samples.

Results

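The genes described here were those detected mostly in synchronized cells, in single neurons of the dorsal pallium of zebrafish. A gene counted as detected in a cell with 5 or more counts, and its score was the number of synchronized cells minus the number of non-synchronized cells in which it was detected. The members were chosen by this score, on the same cells in which they are described below. The 100 named genes with the highest score were taken, with ties ordered by the difference in mean log2(CPM + 10), where CPM is a gene's counts per 1000000 counts of its library, and 6 of them were dropped by the start of their name (fat1b, htr7a, pcdh1g2, pde11a, kcng1 and kcnab2b). This left 94 members of the 18820 genes in the deposited table. Since the rule used the contrast between the groups, the difference between the groups in these genes is a description and was not tested.

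The study asked how serotonin shapes a state of vigilance, and sequenced single neurons while looking for the receptor behind their synchronized activity. These were neurons of the central zone of the dorsal pallium (Dc) that were synchronized or non-synchronized after an alarm signal. Neurons were taken by glass pipette from Tg(HuC:H2B-GCaMP6f) fish of 4 to 5 weeks, after two-photon imaging of their calcium activity. One group was 10 neurons with synchronized activity after treatment with CAS, the conspecific alarm substance released by injured fish, and it was set against 10 neurons with non-synchronized activity after the same treatment. Each neuron gave its own RNA sequencing library, and no fish without CAS was among the 20 libraries. The transgene places a nuclear calcium indicator under the HuC promoter, which is active in neurons, so every imaged cell of both groups came from the same reporter line. The labels do not name the fish behind each cell. The cells of a group were therefore taken as 1 sample, every SD below is the spread between cells, and no p-value is given.

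The members have no shared function by design. Some are known from lysosomes and endosomes, where proteins and lipids are sorted and broken down, some from the nucleus and the handling of RNA and DNA, and some from mitochondria. Others are receptors and signalling enzymes with known roles in neurons, such as the delta opioid receptor, a BMP receptor and the calcium-stimulated adenylyl cyclase 1. A transcript read in one single-cell library can be missed in the library of the next cell, so detection in a cell and the level in a cell are given apart throughout.

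Library totals ran from 795838 to 2493351 counts (median 1873460) in synchronized cells and from 1131532 to 3144155 counts (median 2338580) in non-synchronized cells. Genes with 5 or more counts numbered 4854 to 8859 per synchronized cell (median 7250) and 4010 to 7843 per non-synchronized cell (median 6694). The summed level of the neuron markers elavl3, elavl4, snap25a and snap25b was 2331 to 6072 CPM in synchronized cells. In non-synchronized cells it was 1943 to 5405 CPM, so neuron markers were read in every library. Summed red blood cell genes reached 9375 CPM in a synchronized cell and 12659 CPM in a non-synchronized cell, and summed microglia and leukocyte genes reached 250 CPM in a synchronized cell and 2479 CPM in a non-synchronized cell. In 6 libraries 1 of these sums was above 1000 CPM (synchronized cells 4-1 and 5, non-synchronized cells 5, 6, 13 and 22). Summed radial glia genes were not part of this count. They reached 959 CPM in synchronized cell 22, 1889 CPM in non-synchronized cell 18 and 1384 CPM in non-synchronized cell 22. Non-synchronized cell 18 therefore stayed in all values given without the 6 libraries. Of the microglia and leukocyte genes, apoeb had counts in 4 synchronized and 6 non-synchronized cells, cd74a in 2 and 3, coro1a in 1 and 2, laptm5 in 0 and 2, and mpeg1.1 and c1qc in 0 and 1 each. The part of these other-cell transcripts in the results was not tested.

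Of the 94 members, 5 had a score of 8, 18 a score of 7, 62 a score of 6 and 9 a score of 5. A score of 5 or higher was reached by 2.05% of the 14404 genes with a mean of at least 1 CPM, called measured genes below, and by all 94 members because it was the rule. The table as a whole leaned the same way. A score above 0 was found for 8177 genes and a score below 0 for 4749 genes, and 90 genes reached 6 or higher where 17 reached -6 or lower. The members were thus the upper end of a distribution that ran out to both sides, and more genes were detected per synchronized cell than per non-synchronized cell.

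**Figure D1:**
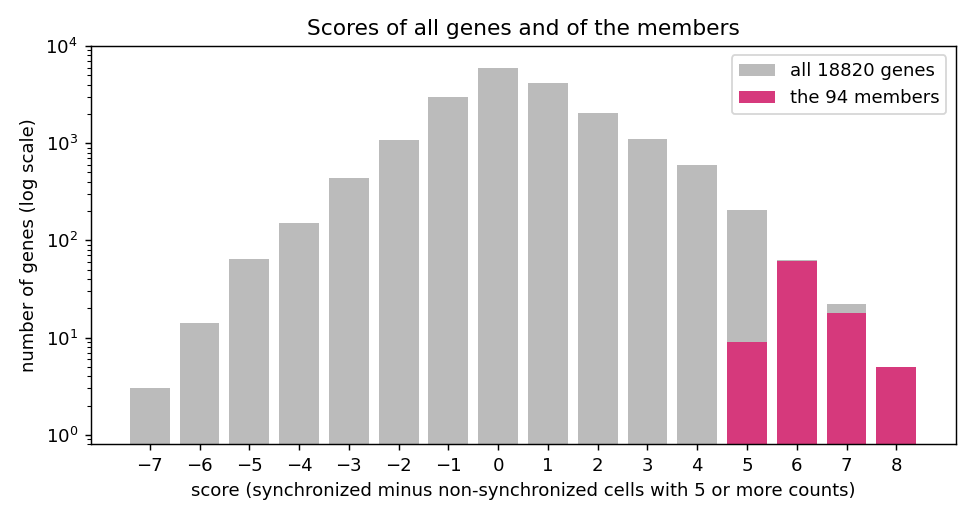
Number of genes (log scale) at each score, the synchronized minus the non-synchronized cells with 5 or more counts, for all 18820 genes (grey) and for the 94 members (magenta). The members fill the right end of the distribution, from a score of 5 to a score of 8, and the left end reaches -7.

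At the edge of the rule the values changed little from one gene to the next. The last members inside were p4ha1a (8 synchronized and 3 non-synchronized cells), shrprbck1r (9 and 4 cells) and si:dkey-16j16.4 (8 and 3 cells). The first genes outside were mgrn1b (10 synchronized and 5 non-synchronized cells), smyd4 (7 and 2 cells) and si:dkey-28e7.3 (8 and 3 cells), all with the same score of 5. The difference in mean log2(CPM + 10), which ordered the ties, was 1.87 for si:dkey-16j16.4 inside and 1.87 for mgrn1b outside.

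Each synchronized cell held 55 to 90 of the 94 members (median 77.5), and each non-synchronized cell held 9 to 30 (median 19). As a share of the members this was 81.5 ± 11.2% in synchronized cells and 19.5 ± 7.15% in non-synchronized cells (SD between cells, n = 10 each). Among all measured genes the shares were 49.4 ± 8.49% in synchronized cells and 44.1 ± 8.15% in non-synchronized cells. The synchronized cell with the most members, cell 16 with 90, was also the one with the most genes detected (8859), and the synchronized cell with the fewest members, cell 5 with 55, had the fewest genes (4854). In the same way non-synchronized cells 6 and 15, with 9 and 10 members, had the fewest genes of their group, 4739 and 4010. The members took up 0.525 ± 0.129% of the counts of a synchronized library and 0.126 ± 0.0738% of those of a non-synchronized library.

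**Figure D2:**
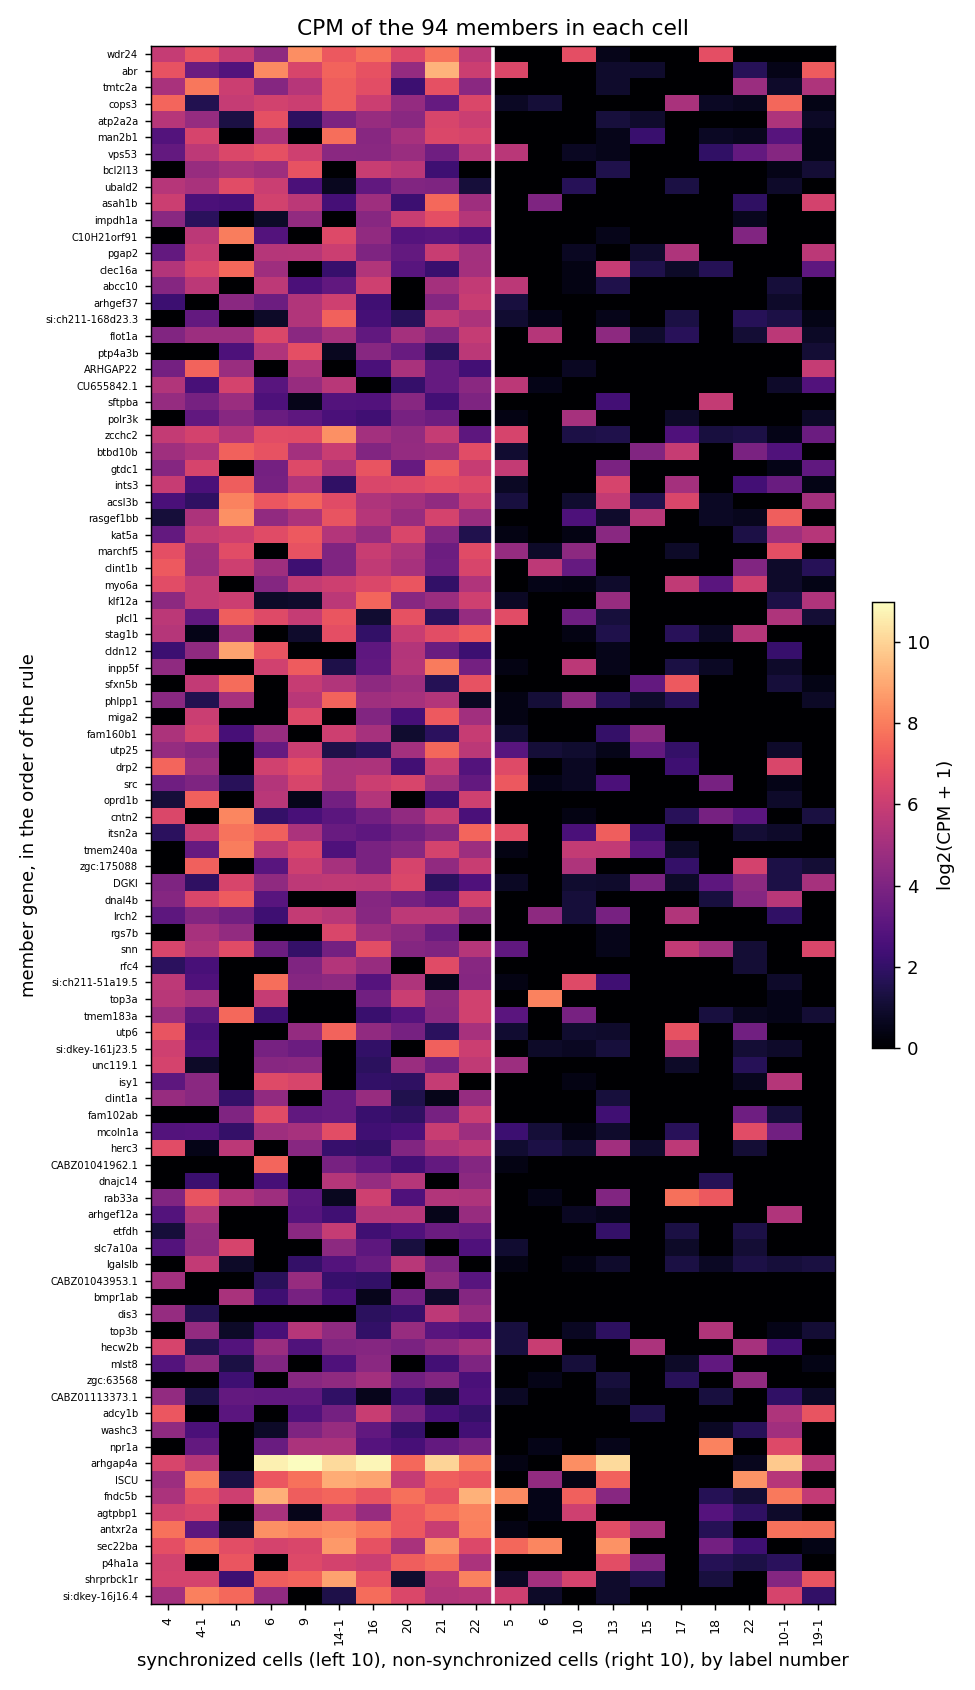
Level of each of the 94 members (rows, in the order of the rule) in each of the 10 synchronized cells (left of the white line) and 10 non-synchronized cells (right), as log2(CPM + 1), black being 0. The left side is filled in most rows with gaps that change from row to row, and the right side is mostly black with single bright cells.

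To read chosen genes in a cell not used for their choice, each cell was left out in turn. The rule was applied to the other 19 libraries, and the genes it chose were looked up in the cell left out. This look-up was added after the data had been seen. The rule chose 93 to 95 genes each time, of which 59 to 81 were among the 94 members. In the cell left out, 54.1 ± 15.3% of the chosen genes were detected when it was a synchronized cell (29.8 to 81.1%) and 49.1 ± 12.6% when it was a non-synchronized cell (26.3 to 61.7%). The difference was 5.03 percentage points, against 62.0 points for the members in the cells that chose them and 5.35 points for all measured genes. Only 3 of the 10 synchronized cells were above every non-synchronized cell, and the medians were 53.5% in synchronized cells and 55.3% in non-synchronized cells. Each list was chosen with fewer cells in the group of the cell left out than in the other group, which can lower the 5.03 points. The 62.0 points follow in part from the rule, and the 5.35 points are no exact baseline. These differences are therefore a description, and the part of the choice in them was not tested.

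The levels gave the same picture. The mean log2(CPM + 10) of the 94 members was 5.13 ± 0.16 in synchronized cells and 3.78 ± 0.17 in non-synchronized cells, a difference of 1.35. For genes chosen without the cell it was 4.46 ± 0.19 in synchronized cells and 4.55 ± 0.32 in non-synchronized cells, a difference of -0.09. Over all measured genes it was 4.72 ± 0.14 in synchronized cells and 4.61 ± 0.15 in non-synchronized cells. The difference between the groups in the members was thus measured in the cells used to choose them. Genes chosen from the other 19 libraries differed between the groups by no more than genes in general. Each cell was read with its own list, chosen with 1 cell fewer in its own group than in the other. Genes in general are therefore no exact baseline, and the imbalance can lower the difference that this look-up gives. Less the mean over all measured genes, the chosen genes stood at -0.258 in synchronized cells and -0.058 in non-synchronized cells. On this measure 0 of the 10 synchronized cells were above the non-synchronized median. The part of the choice in the members' difference was not tested. The values of single members below are to be read with this in mind.

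**Figure D3:**
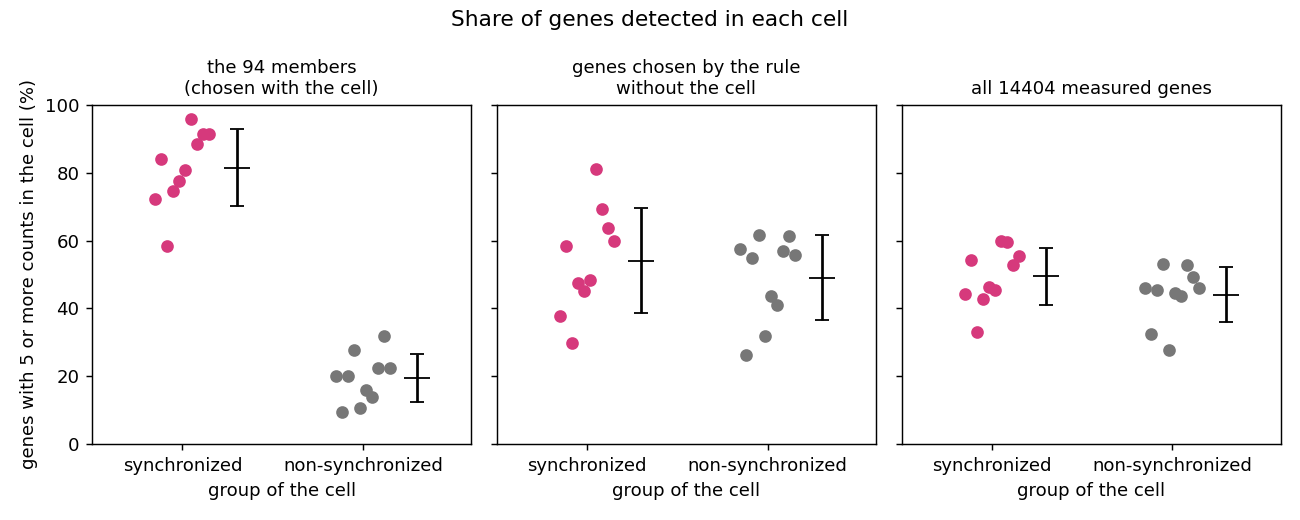
Share of genes with 5 or more counts in each cell (points; horizontal line and bar, mean ± SD, n = 10 cells a group) for the 94 members, for the genes that the rule chose without that cell, and for all 14404 measured genes, with synchronized cells on the left of each panel. The groups stand apart in the left panel (81.5 and 19.5%) and overlap in the middle panel (54.1 and 49.1%) and the right panel (49.4 and 44.1%). The left panel shows the cells used for the choice. Each list of the middle panel was chosen with fewer cells in the group of the cell read, so the right panel is no exact baseline for it.

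The scores of the members limit the number of cells in which they can be detected, and it was 6 to 15 of the 20 cells (median 10), or 50.5% on average. In this range lay 5876 measured genes (40.8%), while 902 were detected in all 20 cells and 3575 in at most 3. Among the members, 17 were detected in all 10 synchronized cells, 22 in 9, 25 in 8, 18 in 7 and 12 in 6. Of non-synchronized cells, 17 members were detected in none, 20 in 1, 24 in 2, 19 in 3, 12 in 4 and 2 in 5. No interval is given for these shares, since the genes were chosen by them.

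Mean levels of the members were 6.33 to 814 CPM in synchronized cells (median 37.4) and 0 to 239 CPM in non-synchronized cells (median 6.66). A mean at least 2-fold higher in synchronized cells, after adding 1 CPM, was found for 86 of the 94 members, against 26.7% of measured genes, and this comparison too is the one the rule used. A mean at least 2-fold higher in non-synchronized cells was found for 1 member, npr1a, against 23.3% of measured genes. No member had every synchronized cell above every non-synchronized cell. Of all measured genes this was so for 0.00694%, which is a single gene, lrrk2, singled out here after its values were seen. It encodes a large kinase of the lysosome and endosome system and was not a member. It had 5 or more counts in 5 synchronized cells and in 0 non-synchronized cells. Its lowest synchronized cell was at 0.465 CPM and its highest non-synchronized cell at 0.376 CPM, so the groups were parted only by very low counts. The synchronized median was 1.52 CPM, and cell 4-1 held 64.1% of that group's level.

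In the cells that detected a member, its levels in the groups lay closer together. Among the 77 members detected in both groups, the mean over the cells that detected them was higher in synchronized cells for 48 and higher in non-synchronized cells for 29. The median of the ratio was 1.40. In non-synchronized cells 1 cell held at least 50% of the group's CPM for 72 members, and in synchronized cells for 10. The rule favours genes detected in few non-synchronized cells, so this contrast follows in part from the choice. These counts were not made over all measured genes, so they are no result about the members. Some members called not detected in a cell had a count below 5 there. Per non-synchronized cell 22 to 59 members (median 44) had at least 1 count, and 9 to 30 (median 19) had 5 or more. At least 1 count in some non-synchronized cell was found for 91 of the 94 members, which include the 77 detected there.

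Across synchronized cells, correlations between members were near those between measured genes in general. Pearson's r of log2(CPM + 10) across the 10 synchronized cells had a median of -0.0028 over the 4371 pairs of members, and 49.7% of pairs were above 0. For the 6284 measured genes detected in at least 6 synchronized cells the median was 0.03, with 52.7% above 0. These values are a description over 10 cells that share their library depth.

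Among the regulators of mTORC1 and Akt were 3 members. The first in the order of the rule was wdr24, whose product is a subunit of GATOR2, the complex that signals amino acid supply to mTORC1. It was read at 21.5, 109 and 331 CPM (lowest, median and highest cell) in synchronized cells, against 0, 0 and 112 CPM in non-synchronized cells. Means were 130 ± 96.8 CPM in synchronized cells and 22.1 ± 46.5 CPM in non-synchronized cells, a log2 ratio of 2.51 (3.29 without non-synchronized cell 10 and 3.32 without cell 18). Without synchronized cell 9, the highest of its group, the log2 ratio of wdr24 was 2.24. All 10 synchronized cells and non-synchronized cells 10 and 18 detected it, and these 2 non-synchronized cells were above 5 of the synchronized cells. mlst8, a subunit shared by both mTOR complexes, had a mean of 8.91 CPM in synchronized cells (7 cells) and 1.09 CPM in non-synchronized cells (1 cell), and phlpp1, a phosphatase that removes an activating phosphate from Akt, had 37.5 CPM in 8 synchronized cells and 2.78 CPM in 2 non-synchronized cells.

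The lysosome, endosome and membrane traffic members were the largest role group, with 13 genes detected in 6 to 10 synchronized cells and 0 to 5 non-synchronized cells. Their differences in mean log2(CPM + 10) were 0.49 to 2.16 (median 1.36), and the median over all 94 members was 1.36. The groups of roles were drawn up after the members were known, so that a count within a group is a count of names and not evidence for a theme.

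man2b1 encodes a lysosomal mannosidase that trims sugar chains. It had 0, 35.2 and 201 CPM (lowest, median and highest) in synchronized cells and 0, 0.409 and 6.62 CPM in non-synchronized cells. Its means were 54.9 ± 61.8 CPM in synchronized cells and 1.22 ± 2.17 CPM in non-synchronized cells, and 7 of 10 synchronized cells were above every non-synchronized cell while cells 5 and 9 had less than 5 counts. asah1b, the lysosomal acid ceramidase, spanned 3.72, 28.2 and 185 CPM in synchronized cells, against 0, 0 and 76.2 CPM in non-synchronized cells, where cell 19-1 carried most of the group's level. Without that cell the ratio of its means was 22.5, against 4.76 with it. Leaving out synchronized cell 21, the highest of its group, lowered the log2 ratio of asah1b from 2.14 to 1.54.

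Further steps of traffic were represented by 1 or a few genes each. vps53, a subunit of the tethering complex that returns vesicles to the Golgi, was detected in 10 synchronized cells at 8.80, 36.9 and 112 CPM (lowest, median and highest) and in 3 non-synchronized cells, where the lowest, median and highest were 0, 0.539 and 48.1 CPM. flot1a, a flotillin of membrane microdomains, had 8.53, 27.4 and 88.5 CPM in synchronized cells, against 0, 0.994 and 48.4 CPM in non-synchronized cells. Both genes were thus detected in every synchronized cell and in 3 non-synchronized cells.

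clec16a, an endosomal protein tied to the removal of mitochondria, had 0, 30.3 and 182 CPM in synchronized cells and 0, 0.554 and 59.3 CPM in non-synchronized cells. sec22ba, a SNARE between the endoplasmic reticulum and the Golgi, had 35.3, 108 and 399 CPM in synchronized cells and 0, 2.12 and 358 CPM in non-synchronized cells. Its means were 158 ± 124 CPM in synchronized cells and 85.3 ± 140 CPM in non-synchronized cells, and 3 non-synchronized cells (5, 6 and 13) held it at levels inside the synchronized range, with a log2 ratio of 0.89. All 3 are among the 6 libraries rich in red blood cell or microglia genes, and the log2 ratio was 1.51 without cell 13 and 5.72 without the 6 libraries. Without synchronized cell 14-1, the highest of its group, the log2 ratio of sec22ba was 0.62. The clathrin adaptor genes clint1a and clint1b were both members (6 and 10 synchronized cells, 0 and 4 non-synchronized cells). The rest of this group were mcoln1a (the lysosomal cation channel TRPML1), itsn2a (an endocytic scaffold), washc3 (a subunit of the WASH complex of endosomes), myo6a (a myosin of endocytic vesicles) and rab33a (a small GTPase of vesicle traffic).

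rab33a was nearly level between the groups in mean CPM, at 37.3 ± 36.9 CPM in synchronized cells and 36.1 ± 73.7 CPM in non-synchronized cells. It was detected in 9 synchronized and 3 non-synchronized cells, and non-synchronized cell 17 alone had 206 CPM. Its log2 ratio was 0.05, with 1.08 when cell 17 was left out and -1.11 without the 6 libraries rich in red blood cell or microglia genes. It shows how a member could be chosen by the number of cells with little difference in the mean.

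Further members given cell by cell were abr, arhgap4a, ARHGAP22 and arhgef37. abr had 6.29, 100 and 613 CPM (lowest, median and highest) in synchronized cells and 0, 0.649 and 146 CPM in non-synchronized cells. Its means were 152 ± 186 CPM in synchronized cells and 24.0 ± 51.2 CPM in non-synchronized cells, a log2 ratio of 2.62 (2.03 if synchronized cell 21 was left out, 3.75 if non-synchronized cell 19-1 was), and non-synchronized cells 5 and 19-1 were the ones that detected it. Synchronized cell 21, at 613 CPM, was far above the next cell at 312 CPM.

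arhgap4a had the highest mean CPM of the members in both groups, a scale that is not divided by transcript length. Its lowest, median and highest were 0, 637 and 2025 CPM in synchronized cells, against 0, 0.448 and 1122 CPM in non-synchronized cells. The means were 814 ± 797 CPM in synchronized cells and 239 ± 419 CPM in non-synchronized cells, so each SD was close to or above its mean. Among synchronized cells only cell 5 was at 0, the next lowest being cell 4-1 at 44.1 CPM, while the non-synchronized median lay near 0. Above every non-synchronized cell were 3 synchronized cells.

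ARHGAP22 had 0, 10.8 and 168 CPM in synchronized cells and 0, 0 and 57.8 CPM in non-synchronized cells. A single non-synchronized cell, 19-1, made up nearly all of its level there, the next being at 0.636 CPM. arhgef37 had 0, 14 and 70.1 CPM in synchronized cells, against 0, 0 and 1.37 CPM in non-synchronized cells, and 8 of 10 synchronized cells were above every non-synchronized cell. arhgef12a was detected in 7 synchronized cells and 1 non-synchronized cell, and rasgef1bb in 9 synchronized and 3 non-synchronized cells.

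**Figure D4:**
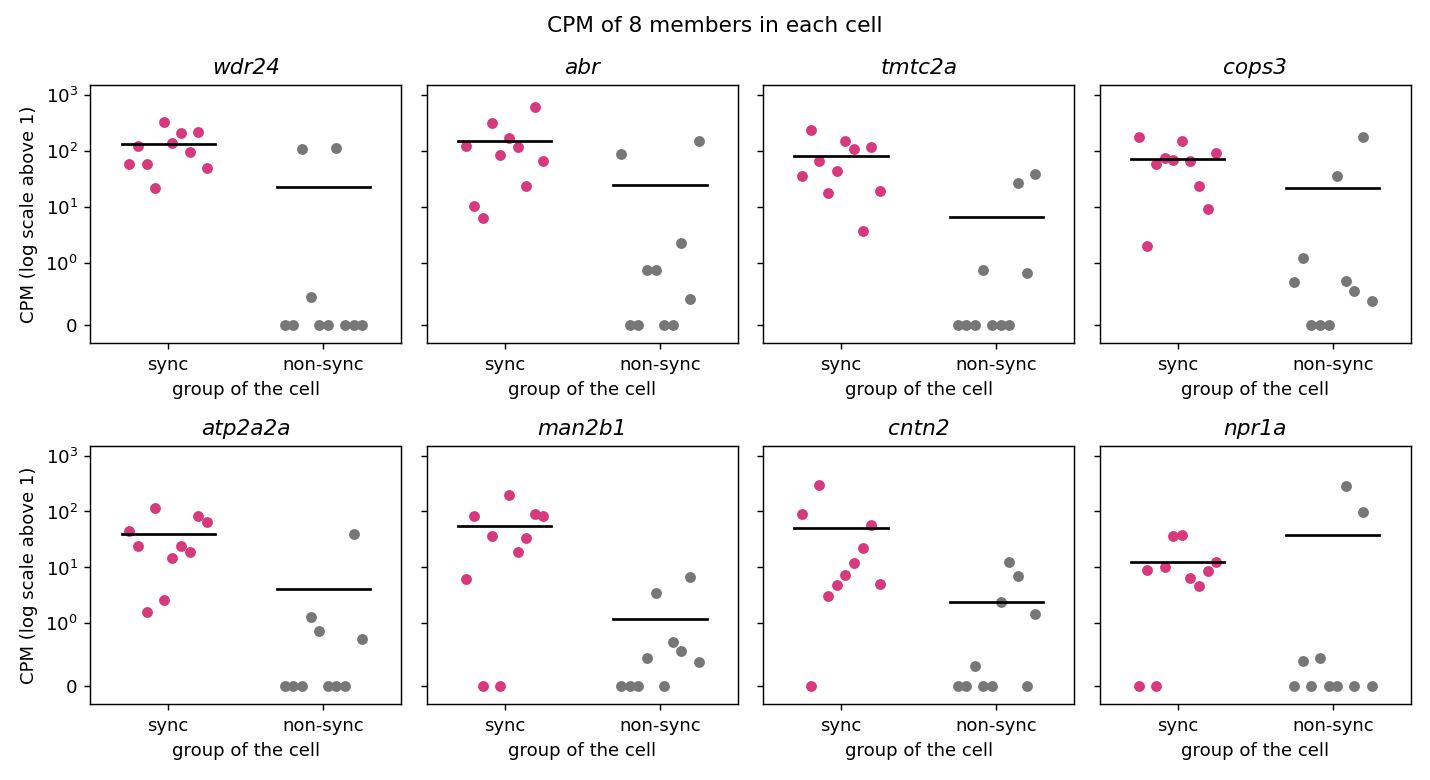
CPM of 8 members in each cell (points) with the mean of the group (line), synchronized cells left and non-synchronized cells right, on an axis that is logarithmic above 1 CPM and linear below. Most non-synchronized cells lie at or near 0 with a few higher cells, and npr1a has its highest cells (283 and 96.0 CPM) in the non-synchronized group.

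The receptors and G protein genes differed most among themselves. oprd1b, a delta opioid receptor gene, had 0, 7.92 and 158 CPM (lowest, median and highest) in synchronized cells, against 0, 0 and 0.827 CPM in non-synchronized cells. It was detected in 6 synchronized cells and in 0 non-synchronized cells. rgs7b, whose product speeds the inactivation of inhibitory G proteins, likewise had 6 and 0 cells, with means of 20.2 CPM in synchronized cells and 0.0443 CPM in non-synchronized cells.

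bmpr1ab, a type I receptor for bone morphogenetic proteins, had no count in any non-synchronized cell. In synchronized cells it had 0, 4.49 and 35.4 CPM (lowest, median and highest) with a mean of 8.80 ± 11.2 CPM, and 8 cells were above every non-synchronized cell although only 6 reached 5 counts. Set against a limit of 3 counts in all non-synchronized libraries together (0.139 CPM), this was at least 58.0-fold higher. Without synchronized cell 5, at 35.4 CPM, it was at least 43.0-fold higher. The limit covers counting error only and not the spread between cells, so these values do not bound the difference between the groups. The rule favoured genes with no detection in the non-synchronized group. The share of all measured genes with 0 counts in that group is not given here, so such members are no result about the set. bmpr1ab was the single member in the list of TGF-beta, BMP and activin genes, of which 9 of 20 measured genes (45%) were at least 2-fold higher in synchronized cells and 4 of 20 (20%) at least 2-fold higher in non-synchronized cells, beside 26.7% and 23.3% of all measured genes.

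adcy1b, the calcium-stimulated adenylyl cyclase, was detected in 8 synchronized and 2 non-synchronized cells, with means of 24.0 ± 41.7 CPM in synchronized cells and 16.4 ± 39.4 CPM in non-synchronized cells. Its log2 ratio was 0.52, with -0.41 when synchronized cell 4 was left out and 2.18 when non-synchronized cell 19-1 was. antxr2a, a receptor for extracellular matrix that also binds anthrax toxin, had 0.786, 225 and 339 CPM in synchronized cells and 0, 1.23 and 212 CPM in non-synchronized cells. Synchronized cell 5 was its only cell of that group without 5 counts, and 6 synchronized cells were above every non-synchronized cell.

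npr1a, a natriuretic peptide receptor with guanylyl cyclase activity, ran against the other members in its mean. It had 0, 8.72 and 37.6 CPM (lowest, median and highest) in synchronized cells, against 0, 0 and 283 CPM in non-synchronized cells, with means of 12.5 ± 13.6 CPM in synchronized cells and 38.0 ± 91.2 CPM in non-synchronized cells. Its 8 synchronized cells held little each, and 2 non-synchronized cells (18 and 10-1) held most of the level. The log2 ratio was -1.53, and 0.20 without cell 18.

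Among adhesion and membrane proteins, cntn2 encodes contactin 2, an adhesion molecule of axons. Its lowest, median and highest were 0, 9.73 and 296 CPM in synchronized cells and 0, 0.159 and 12.7 CPM in non-synchronized cells. Means were 49.9 ± 91.2 CPM in synchronized cells and 2.41 ± 4.25 CPM in non-synchronized cells, a log2 ratio of 3.90 (2.79 if synchronized cell 5 was left out, 4.49 if non-synchronized cell 18 was), and synchronized cell 5 held most of the group's level. It was the single member in the list of synaptic adhesion genes, in which 15 of 45 measured genes (33.3%) were at least 2-fold higher in synchronized cells and 7 of 45 (15.6%) at least 2-fold higher in non-synchronized cells, beside the same 26.7% and 23.3%.

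fndc5b, whose mammalian relative gives rise to the hormone irisin, was detected in all 10 synchronized cells and in 5 non-synchronized cells. It had 36.4, 137 and 582 CPM in synchronized cells, against 0, 10.1 and 314 CPM in non-synchronized cells. abcc10, a drug and lipid exporter, had 0, 24.9 and 69.7 CPM in synchronized cells and 0, 0 and 48.4 CPM in non-synchronized cells, with non-synchronized cell 5 alone above 1.77 CPM. cldn12 (a claudin), drp2 (a relative of dystrophin) and slc7a10a (a transporter of small neutral amino acids) were the other members of this group, detected in 7, 9 and 6 synchronized cells and in 1, 3 and 0 non-synchronized cells.

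The calcium store and the endoplasmic reticulum were represented by atp2a2a, the SERCA2 pump that returns calcium to the store. It was read at 1.57, 24.5 and 114 CPM (lowest, median and highest) in synchronized cells, against 0, 0 and 38.9 CPM in non-synchronized cells. Means were 39.3 ± 37.1 CPM in synchronized cells and 4.18 ± 12.2 CPM in non-synchronized cells, and non-synchronized cell 10-1 was the only cell of its group above 1.33 CPM. With that cell left out the ratio of the means was 119, on a remaining non-synchronized mean of 0.329 CPM, against 9.39 with it. Its log2 ratio was 2.96, and 2.63 without synchronized cell 6, the highest of its group.

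tmtc2a, an enzyme of the endoplasmic reticulum that adds mannose to adhesion proteins, had 3.72, 55.0 and 235 CPM in synchronized cells and 0, 0 and 37.9 CPM in non-synchronized cells. Its means were 79.2 ± 72.7 CPM in synchronized cells and 6.61 ± 13.8 CPM in non-synchronized cells, a log2 ratio of 3.40 (4.28 without non-synchronized cell 19-1 and 3.05 without synchronized cell 4-1), with 6 synchronized cells above every non-synchronized cell. pgap2, which remodels the lipid anchor of surface proteins, had 0, 37.6 and 65.6 CPM in synchronized cells, against 0, 0 and 48.4 CPM in non-synchronized cells. p4ha1a (a prolyl hydroxylase of collagen), dnajc14 (a chaperone of the endoplasmic reticulum) and CU655842.1 (clcc1 in the reference, a chloride channel of the endoplasmic reticulum) made up the rest.

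Mitochondria and metabolism had 8 members, detected in 6 to 9 synchronized cells and 0 to 4 non-synchronized cells. bcl2l13, a receptor for the removal of mitochondria, had 0, 26.9 and 122 CPM (lowest, median and highest) in synchronized cells, against 0, 0 and 1.77 CPM in non-synchronized cells, with 7 synchronized cells above every non-synchronized cell. impdh1a, which catalyses the rate-limiting step of guanine nucleotide synthesis, had 0, 18.7 and 112 CPM in synchronized cells and a count in a single non-synchronized cell (0.552 CPM in cell 22). Each of the 2 genes had less than 5 counts in 3 synchronized cells as well.

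ISCU, the scaffold on which iron-sulfur clusters are built, had 1.57, 141 and 537 CPM in synchronized cells, against 0, 0.159 and 364 CPM in non-synchronized cells. Means were 198 ± 181 CPM in synchronized cells and 59.3 ± 118 CPM in non-synchronized cells. It was detected in 9 synchronized and 4 non-synchronized cells, and only 2 synchronized cells were above every non-synchronized cell. miga2 (mitochondrial fusion), sfxn5b (a sideroflexin transporter), etfdh (electron transfer from fatty acid oxidation), marchf5 (a ubiquitin ligase of the mitochondrial membrane) and acsl3b (fatty acid activation) completed the group, in 6 to 9 synchronized cells and 0 to 3 non-synchronized cells.

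Genes of the nucleus and of RNA and DNA handling gave 12 members. dis3, a ribonuclease of the RNA exosome, had 0 counts in every non-synchronized cell and 0, 2.26 and 50.8 CPM (lowest, median and highest) in synchronized cells, or at least 77.6-fold higher against the same limit of 3 counts. Without synchronized cell 21, at 50.8 CPM, it was at least 34.9-fold higher. The clone-named gene CABZ01043953.1 was the last of the 3 members with 0 counts in non-synchronized cells, with 0, 3.22 and 31.4 CPM in synchronized cells. It was at least 63.2-fold higher, and 46.2-fold without synchronized cell 9, which had the most counts of it (25.1 CPM). Its highest CPM was in synchronized cell 4. The limit of 3 counts covers counting error only for these genes too. Each of these genes was absent from 4 synchronized cells at 5 counts, so that low counts were the rule in both groups.

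The other genes here were ints3 (a subunit of the Integrator complex), utp6 and utp25 (ribosome assembly), isy1 (splicing), polr3k (a subunit of RNA polymerase III), kat5a (the Tip60 acetyltransferase), stag1b (a cohesin subunit), klf12a (a zinc finger transcription factor), rfc4 (loading of the replication clamp) and the topoisomerases top3a and top3b. top3a had means of 30.7 ± 28.3 CPM in synchronized cells and 27.7 ± 87.5 CPM in non-synchronized cells. Non-synchronized cell 6 had 277 CPM of it and every other cell of that group at most 0.414 CPM. Its log2 ratio was 0.14, and 4.92 without that cell. Without synchronized cell 22, the highest of its group, the log2 ratio was -0.086.

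Ubiquitin ligases and the signalosome were represented by cops3, herc3, hecw2b and zgc:175088 (fbxo2 in the reference). cops3, a subunit of the COP9 signalosome that regulates cullin ligases, had 2.01, 66.3 and 173 CPM (lowest, median and highest) in synchronized cells, against 0, 0.619 and 179 CPM in non-synchronized cells. The highest cell of all was thus a non-synchronized one (10-1), and without it the ratio of the means was 16.8, against 3.29 with it. The log2 ratio of cops3 was 1.67, and 1.43 without synchronized cell 4, the highest of its group. Tubulin and dynein gave agtpbp1, which removes glutamates from tubulin (8 synchronized and 3 non-synchronized cells), and dnal4b, a dynein light chain (8 and 2 cells).

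Of kinases, phosphatases and lipid signalling enzymes 5 were members. ptp4a3b, a tyrosine phosphatase, had 0, 7.63 and 110 CPM (lowest, median and highest) in synchronized cells and a count in a single non-synchronized cell (1.13 CPM in cell 19-1). src, the tyrosine kinase, had means of 38.3 ± 31.2 CPM in synchronized cells and 15.6 ± 42.4 CPM in non-synchronized cells, with no synchronized cell above non-synchronized cell 5 at 136 CPM (log2 ratio 1.25, and 3.60 without that cell). Without synchronized cell 20, the highest of its group, the log2 ratio of src was 1.04. inpp5f (a phosphatase of membrane phosphoinositides), plcl1 (a phospholipase C relative without catalytic activity) and DGKI (diacylglycerol kinase iota) were in 7, 9 and 10 synchronized cells and in 1, 3 and 4 non-synchronized cells.

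No role was given to 23 members. Of these, ubald2 had 0.570, 15.7 and 104 CPM (lowest, median and highest) in synchronized cells, against 0, 0 and 2.23 CPM in non-synchronized cells, and 8 synchronized cells were above every non-synchronized cell. C10H21orf91 had 0, 6.70 and 259 CPM in synchronized cells and 0, 0 and 16 CPM in non-synchronized cells, with most of its level in synchronized cell 5. sftpba had 0.440, 9.55 and 26.7 CPM in synchronized cells, against 0, 0 and 57.2 CPM in non-synchronized cells, where cell 18 was above every synchronized cell. Clone or locus names were carried by 10 of the members.

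Zebrafish carry many genes as duplicates that came from an early doubling of the fish genome, named with a final a or b. The rule scored both genes of such a pair on these same cells, so the other gene is no independent measure. Where it was not kept, its score could be at most 5, a limit that all measured genes together do not have. Of 41 members with a name ending in a or b, 38 had the other gene in the table, and for 4 it was a member too (clint1a and clint1b, and top3a and top3b, which are separate genes of vertebrates and not duplicates). Of the 34 others, 17 had a score above 0, 6 a score of 0 and 11 a score below 0 (median 0.5, from -2 to 5). Of these 34, 30 were measured genes, and a score above 0 was found for 16 of the 30 (53.3%), beside 49.3% of all measured genes. At least 2-fold higher means were found for 9 of the 34 in synchronized cells and for 9 in non-synchronized cells. Over all measured genes the shares were 26.7% and 23.3%, while the 34 include genes that were not measured.

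Several of these other genes were the more widely detected ones of the pair. rgs7a was detected in all 10 synchronized and all 10 non-synchronized cells, at means of 239 ± 179 CPM in synchronized cells and 201 ± 124 CPM in non-synchronized cells, beside rgs7b with 6 and 0 cells. atp2a2b was detected in 9 synchronized and 7 non-synchronized cells (means 40.1 and 29.8 CPM), beside atp2a2a with 9 and 1 cells, and ptp4a3a in 10 and 7 cells (means 206 and 147 CPM), beside ptp4a3b with 7 and 0 cells. impdh1b was detected in 9 synchronized and 6 non-synchronized cells, beside impdh1a with 7 and 0 cells.

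Other pairs went apart or together. oprd1a was detected in 0 synchronized and 2 non-synchronized cells, and antxr2b likewise in 0 and 2 cells. sec22bb had means of 11.2 CPM in synchronized cells and 35.7 CPM in non-synchronized cells, the reverse of sec22ba. The highest scores of these other genes were those of npr1b and fndc5a, at 5. fndc5a was detected in 8 synchronized and 3 non-synchronized cells (means 80.8 and 21.2 CPM). npr1b was detected in 6 synchronized cells and 1 non-synchronized cell, and its means of 71.6 CPM in synchronized cells and 17.2 CPM in non-synchronized cells ran opposite to those of npr1a. bmpr1aa was detected in 1 cell of each group. Where copies are near-identical, how the counting shared their reads is not given in the sources used here.

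**Figure D5:**
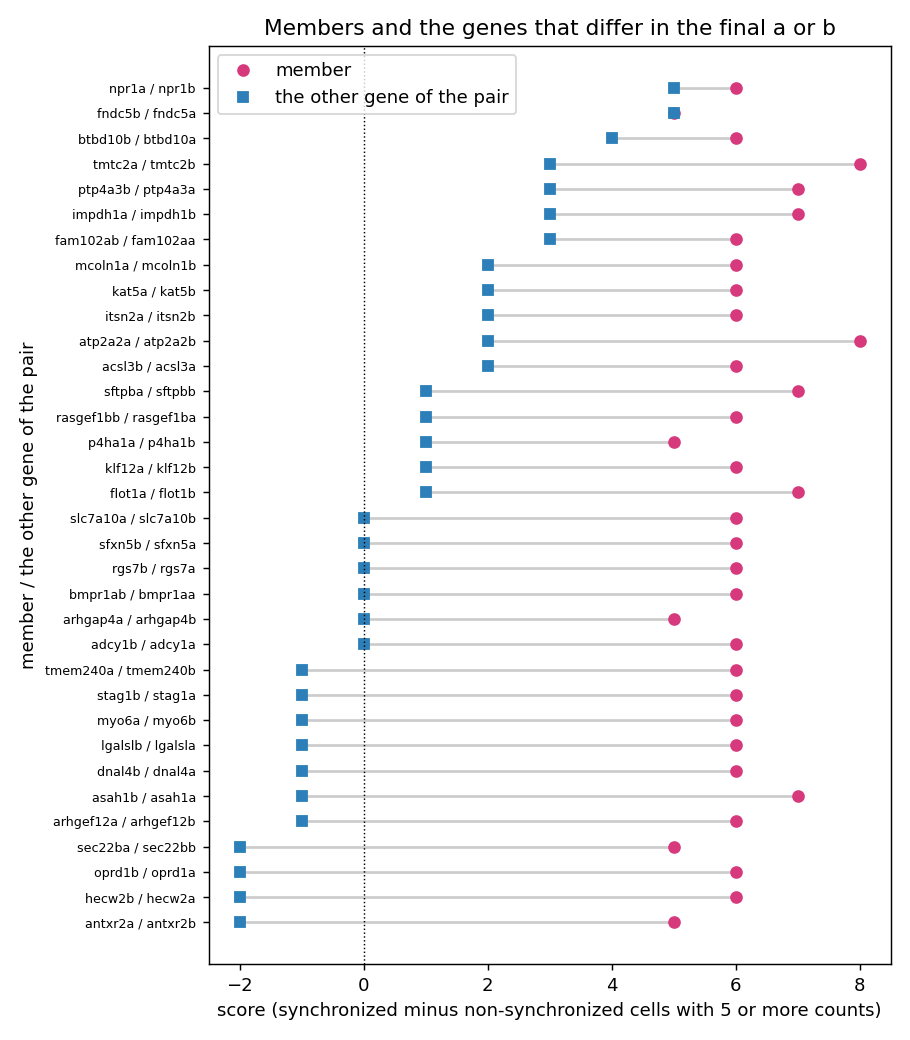
Score (synchronized minus non-synchronized cells with 5 or more counts) of members (magenta circles) and of the gene whose name differs in the final a or b (blue squares), for the 34 pairs whose other gene is no member, with a dotted line at 0. The members lie at 5 to 8 by the rule, and the other genes lie from -2 to 5, with 17 above 0 and 11 below.

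Of the 340 measured genes in 21 lists of cell types and of synaptic, calcium and transcriptional signalling, 2 were members, bmpr1ab and cntn2. This is 0.588% of them, beside 0.653% of all measured genes. In the PKA and CREB list, the pathway downstream of adenylyl cyclases, 4 of 15 measured genes were at least 2-fold higher in synchronized cells and 0 of 15 in non-synchronized cells. In the list of calcium and calmodulin kinases and calcineurin the counts were 1 and 2 of 26, in Ras and MAP kinases 3 and 5 of 32, and in immediate-early genes 1 and 8 of 18. Vesicle release genes gave 7 and 2 of 32, postsynaptic scaffold genes 5 and 2 of 21 and microtubule and motor genes 3 and 3 of 31. Over all measured genes these shares were the 26.7% and 23.3% given above.

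Further lists held 15 neurotrophin and FGF receptor genes (3 at least 2-fold higher in synchronized cells and 4 in non-synchronized cells) and 23 Wnt genes (3 and 6). There were 10 neuropeptides (2 and 7) and 14 nuclear receptor and hormone genes (2 and 3). Of the cell type lists, pan-neuronal genes gave 1 and 2 of 12, and microglia and leukocyte genes 0 and 5 of 5. Red blood cell genes gave 0 and 3 of 5, and oligodendrocyte genes 2 and 1 of 5. Radial glia genes gave 2 and 3 of 8, and endothelium genes 0 and 2 of 2. Glutamate transporter genes were at least 2-fold higher in synchronized cells for 2 of 3, and genes of GABA synthesis and transport at least 2-fold higher in non-synchronized cells for 4 of 5. Summed GABA genes had a median of 1.51 CPM in synchronized cells (0 to 683 CPM, the highest in cell 4-1). In non-synchronized cells the median was 319 CPM (0.414 to 4424 CPM). Summed glutamate transporter genes had medians of 530 CPM in synchronized cells (165 to 734 CPM) and 181 CPM in non-synchronized cells (0 to 695 CPM). Whether the members follow the transmitter type of the cells was not tested.

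The members were also counted with libraries set aside or thinned. Without the 6 libraries rich in red blood cell or microglia genes, 68 to 90 members were detected per synchronized cell (8 cells) and 10 to 30 per non-synchronized cell (6 cells). After thinning every library to 795838 counts, 51 to 77 members were detected per synchronized cell and 9 to 24 per non-synchronized cell, while the medians of all genes detected were 6574.5 in synchronized cells and 5894.5 in non-synchronized cells. These counts were made with the same 94 genes, which had been chosen on these cells. When the rule itself was applied without the 6 libraries, it kept 32 of the 94 members.

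In the reference annotation (GRCz12tu) 80 members were found by symbol, and 21 of them overlap another protein-coding gene, among them wdr24, man2b1, impdh1a, pgap2, sec22ba and src. None overlaps another member. Library preparation marked the strand of the RNA, but whether the counting used it is not given in the sources used here. Whether reads of the overlapping genes were told apart in these 21 is therefore not known.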

How the data were processed

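Single-neuron RNA sequencing libraries were prepared by the authors with a stranded mRNA kit. The deposited values are read counts without normalization, for 18820 genes in 20 libraries. The submitters' processing notes name danRer11 as the build and edgeR 3.14.0. The aligner and the counter are not given in the sources used. Groups were taken from the labels. The members, gene lists and tests were chosen with earlier results of these data known.

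CPM was computed with library totals of 795838 to 3144155 counts. A gene was measured at a mean of 1 CPM or more. Group ratios used mean CPM + 1 and log differences used mean log2(CPM + 10). Gene names are those of the deposited table, where 58 genes lack one and 18 were turned into dates, 1 of them a member (ENSDARG00000032552), called marchf5 after the reference gene names. Gene overlaps were taken from a RefSeq annotation of another assembly (GRCz12tu) and served for neighbourhood only.

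Values per cell are given for the first 20 members that have no clone or locus name, members with 0 counts in the non-synchronized group, the 5 with the highest mean CPM in synchronized cells, and members of the 21 lists. Others are named with group values, and npr1a, top3a, rab33a, src, oprd1b, rgs7b, adcy1b and lrrk2 were singled out after their values were seen. Pairs of libraries within a group differed, with 59.5 to 238 as chi-square per degree of freedom, and none was merged. The limit for a group at 0 (3 counts) covers counting error only.

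Alternatives were other minimum counts, 5 CPM, thinning, TMM, summed counts, another pseudocount, other totals, summed libraries of 1 label number, and libraries left out. Reading each cell with the genes chosen from the other 19 libraries was added after seeing the data, as were the alternatives for genes given only by group values. A planned search for promoter motifs was not run. The summary of 1 role group was left out. The code was run on simulated counts of 9262 genes. In these, 200 genes were set high in every synchronized cell and turned off in all but 1 non-synchronized cell. Of the 100 genes that the rule selected, 100% were changed ones. A contrast this strong made that outcome near certain, so it does not measure how well the rule works on real cells. TMM factors came from edgeR 4.0.16 in R 4.3.3, and figures from matplotlib 3.10.9. All other steps used pandas 2.3.3 and numpy 2.4.6 in Python 3.11.15.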

Additional observations from a re-analysis of the deposited data

Results flagged for a closer look

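For 31 genes given cell by cell and 3 summary measures of the members, 68 groups of 10 cells were looked at. In 26 of them the highest cell stood apart from the next by more than Dixon's 95% limit, 12 in synchronized cells and 14 in non-synchronized cells, all for single genes. Chance flags about 1 in 20 groups of normally distributed values. That rate does not hold here, because many of these CPM values are 0 and a few are high. In non-synchronized cells impdh1a, ptp4a3b and oprd1b had counts in 1 cell only, and such a group is flagged at any count. The rule also favours genes detected in few non-synchronized cells. The number of flags is therefore a description and cannot be set against 1 in 20.

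In synchronized cells the highest and the next cell were 613 and 312 CPM for abr (cell 21), 201 and 88.7 CPM for man2b1 (cell 14-1), 122 and 62.7 CPM for bcl2l13 (cell 9), 185 and 75.4 CPM for asah1b (cell 21) and 259 and 96.4 CPM for C10H21orf91 (cell 5). They were 182 and 84.2 CPM for clec16a (cell 5), 110 and 49.6 CPM for ptp4a3b (cell 9), 168 and 35.7 CPM for ARHGAP22 (cell 4-1), 35.4 and 17 CPM for bmpr1ab (cell 5), 50.8 and 25.1 CPM for dis3 (cell 21), 296 and 90.5 CPM for cntn2 (cell 5) and 158 and 70.4 CPM for oprd1b (cell 4-1). Cell 5, with 4 of these, is also rich in red blood cell genes (9375 CPM summed) and has the fewest members detected of its group (55).

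In non-synchronized cells the highest and the next cell were 179 and 34.7 CPM for cops3 (cell 10-1), 38.9 and 1.33 CPM for atp2a2a (cell 10-1), 48.1 and 17.8 CPM for vps53 (cell 5), 76.2 and 15.2 CPM for asah1b (cell 19-1), 0.552 and 0 CPM for impdh1a (cell 22) and 16 and 0.443 CPM for C10H21orf91 (cell 22). They were 59.3 and 7.89 CPM for clec16a (cell 13), 48.4 and 1.77 CPM for abcc10 (cell 5), 1.13 and 0 CPM for ptp4a3b (cell 19-1), 57.8 and 0.636 CPM for ARHGAP22 (cell 19-1), 57.2 and 4.43 CPM for sftpba (cell 18), 364 and 162 CPM for ISCU (cell 22), 283 and 96.0 CPM for npr1a (cell 18) and 0.827 and 0 CPM for oprd1b (cell 10-1).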

How the results depend on the processing

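The choice of members depended on its settings. Of the 94 members, the rule kept 21 with a minimum of 1 count, 58 with 3 counts, 48 with 10 counts, 51 with 5 CPM, 50 with thinned libraries and 32 without the 6 libraries rich in red blood cell or microglia genes. With 1 library left out it kept 59 to 81, with the lowest numbers for leaving out synchronized cell 4 (61) and non-synchronized cells 5 (59), 10, 13 and 22 (62 each). Members detected in no non-synchronized cell numbered 17, against 3 with a minimum of 1 count and 9 with 3 counts. The mean difference was 1.35, 2.95 with a pseudocount of 1 CPM, and -0.0904 when each cell was read with the genes chosen from the other libraries, where the difference in detection was 5.03 points, against 62.0 points. The last alternative was chosen after seeing the data. Its lists were chosen with 1 cell fewer in the group of the cell read, which can lower the difference it gives. The causes were not tested. Log2 ratios were recomputed for 38 genes in 836 alternatives. The sign changed in 27, of rab33a, top3a, adcy1b and npr1a only, and npr1a (-1.53) had -1.86 to 0.204 with 1 library left out, the last without non-synchronized cell 18. Leaving out 1 library moved the ratio of 28 of the genes by over 1.5 times. No paired analysis was made, because label numbers are not said to mark a shared fish, and whether cells of the same number share one is not known. With 10 cells a group and no fish named, the spread between fish could not be measured.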
